A study of Homo sapiens with 4 samples.

Results

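The genes described here are 10 established transcriptional targets of the tumour suppressor p53: CDKN1A, MDM2, GDF15, TP53I3, SESN1, BBC3, FAS, BTG2, RRM2B and TP53INP1. They were chosen by symbol among 18377 genes that had an array probe annotated with exactly 1 symbol. Of the 10, 9 were measured, each by 1 probe, and BTG2, an antiproliferative gene, was not analysed here. RNA came from 4 fractions of Huh7, an established human hepatocellular carcinoma line, separated by flow cytometry: CD133+ cells with CD133- cells as their counterpart, and ALDH+ cells (aldehyde dehydrogenase) with ALDH- cells as theirs. No treatment or genetic change is given for any fraction, and the series frames the comparison as cancer stem cells against the remaining tumour cells. Each fraction was measured on 1 array, so no difference below has a replicate check, an error or a p-value. Levels are on a log2 scale, as RMA (a robust averaging of probe signals) returns them, and each difference is the positive minus the negative fraction of a sort. The floor is 4.98, the median over all probes and arrays, and a gene counts as above it in a sort if either of that sort's arrays reached it.

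p53 is a transcription factor that is stabilised by DNA damage and other stress. It then switches on genes that halt the cell cycle, repair DNA, limit growth signalling or start apoptosis, together with MDM2, whose product degrades p53 and closes a negative feedback loop. Its best known arrest gene, CDKN1A, encodes p21, which blocks cyclin-dependent kinases and so lets the DREAM complex repress genes of S phase and mitosis. In the liver, p53 and p21 are known to restrain hepatocyte division after injury. Huh7 is known to carry a missense-mutant p53, and several of these genes also have activators other than p53, as is known for p21.

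The median log2 value was 4.99 on the CD133+ array, 4.92 on CD133-, 5.04 on ALDH+ and 4.98 on ALDH-, and the correlation between arrays over all probes lay between 0.982 and 0.989. Albumin and alpha-fetoprotein, hepatoma markers, stood at 11.3 and 11.8 in CD133+ cells, and all 8 measured hepatocyte markers were above the floor. Of these 8, 2 were higher and 6 lower in CD133+ cells (background 57.1% of genes lower), from APOA1 at -0.78 to TTR at 0.995. In ALDH+ cells 4 were higher and 4 lower. PROM1, the gene of CD133, differed by 3.68 between the CD133 fractions and by -1.28 between the ALDH fractions. Of the markers of cells that a hepatoma line should lack, 3 of 5 for leukocytes, 4 of 6 for fibroblasts and 2 of 5 for endothelium reached the floor in some sort. Their mean levels on the CD133+, CD133-, ALDH+ and ALDH- arrays were 4.95, 5.0, 5.20 and 5.24 over the leukocyte list, 4.80, 4.63, 4.82 and 4.86 over the fibroblast list, and 4.05, 3.84, 4.14 and 4.31 over the endothelial list. The pan-leukocyte gene PTPRC lay between 2.45 and 2.64 on all 4 arrays. In the ALDH sort single markers of these lists differed both ways, PECAM1 by -0.93, CD68 by -0.77, CDH5 by -0.67 and CD14 by 0.42. By sign, 4 leukocyte markers were higher in ALDH+ cells and 1 lower. For fibroblasts 3 were higher and 3 lower, and for endothelium 2 and 3. In CD133+ cells 2 leukocyte markers were higher and 3 lower, and for fibroblasts 4 and 2. All 5 endothelial markers were higher in CD133+ cells, with 0 above the floor in that sort. These sign counts take in markers below the floor. The part of these markers in the results below was not tested.

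The start sites of the genes on which the results turn are shown first. CDKN1A and SESN1 had the widest ranges over the arrays. CCNB2 and PRC1 belong to the cell cycle genes that stood apart in the ALDH sort. Their windows hold the CHR element named below, while those of CCNA2 and AURKB, from the same genes, hold none. The windows are RefSeq sequences of GRCh38.p14 that run from 250 bases before to 50 bases after a start site, in the direction of transcription. The CDKN1A window (chr6:36678464-36678763, plus strand) has GC boxes, the GGGCGG motif bound by Sp1-type factors, in capitals. The SESN1 window is that of 1 of its 3 annotated starts (chr6:109008939-109009238, minus strand), with the p53 decamer in capitals. The CCNB2 window (chr15:59104896-59105195, plus strand) and the PRC1 window (chr15:90994486-90994785, minus strand) have the CHR element, TTTGAA, in capitals; this element of cell cycle promoters is bound by DREAM.
CDKN1A: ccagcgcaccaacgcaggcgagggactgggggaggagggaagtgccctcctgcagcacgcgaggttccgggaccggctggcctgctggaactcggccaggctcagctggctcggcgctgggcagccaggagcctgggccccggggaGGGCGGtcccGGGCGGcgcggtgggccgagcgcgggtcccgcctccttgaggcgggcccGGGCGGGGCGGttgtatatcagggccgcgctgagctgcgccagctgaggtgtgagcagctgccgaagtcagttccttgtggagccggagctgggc
SESN1: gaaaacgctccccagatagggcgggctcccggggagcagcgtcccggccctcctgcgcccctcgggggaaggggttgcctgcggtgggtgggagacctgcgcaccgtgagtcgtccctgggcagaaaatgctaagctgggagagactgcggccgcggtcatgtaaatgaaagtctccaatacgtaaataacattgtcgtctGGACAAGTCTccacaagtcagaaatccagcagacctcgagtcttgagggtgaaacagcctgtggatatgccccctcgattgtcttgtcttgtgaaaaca
CCNB2: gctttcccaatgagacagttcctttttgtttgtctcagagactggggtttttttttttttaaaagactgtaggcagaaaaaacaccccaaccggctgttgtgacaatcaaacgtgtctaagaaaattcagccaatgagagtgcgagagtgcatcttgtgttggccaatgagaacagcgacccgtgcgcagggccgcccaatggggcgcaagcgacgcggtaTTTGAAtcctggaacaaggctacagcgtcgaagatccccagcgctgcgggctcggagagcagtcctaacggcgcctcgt
PRC1: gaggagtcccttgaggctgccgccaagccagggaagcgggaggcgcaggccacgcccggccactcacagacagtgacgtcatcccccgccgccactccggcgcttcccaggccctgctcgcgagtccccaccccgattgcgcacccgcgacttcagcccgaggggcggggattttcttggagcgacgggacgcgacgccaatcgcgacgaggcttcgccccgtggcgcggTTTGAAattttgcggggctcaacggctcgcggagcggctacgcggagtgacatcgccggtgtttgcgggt

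The p53 decamer, the unit that occurs as a pair in a p53 response element, was searched in the 15 windows that RefSeq gave for 8 of the 10 genes. It was found in 2 of them (13.3%), 1 window each of SESN1 and FAS, against 6.63% of all 35116 windows. The 24 windows of the genes repressed through p21 and DREAM gave a like share, 3 (12.5%). Some windows of the same gene overlap, as for MDM2. A full element, a pair of decamers up to 13 bases apart, was in 0 member windows and in 0.0285% of all windows. With so rare a match over all windows, its absence from the member windows says little. The search allowed no mismatch to the consensus, so an element that departs from it at any base is not counted. Nor is an element that lies outside the windows. GC boxes on either strand (GGGCGG or CCGCCC) were in 13 of the 15 member windows (86.7%), against 45% of all windows. They were in 87.5% of the windows of the genes repressed through p21 and DREAM, so this share was not particular to the p53 targets. The CDKN1A window held 4 on the strand shown, with an overlap between the last pair. Its GC content was 74.3%. These matches describe the letters of the windows and say nothing of binding.

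In the CD133 sort, the p53 target genes hardly differed as a group, and CDKN1A was the exception. CDKN1A was 1.73-fold higher in CD133+ than in CD133- cells, while the other 8 measured genes differed by between -0.29 and 0.24. In the ALDH sort CDKN1A went the other way, 1.68-fold lower in ALDH+ than in ALDH- cells, and 4 further genes, TP53INP1, RRM2B, SESN1 and MDM2, were lower by between 0.41 and 0.50. None of the 9 reached 2-fold in either sort. At 2-fold, 0.88% of 11591 genes above the floor in the CD133 sort differed either way, and 1.57% of 11879 in the ALDH sort.

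At 1.5-fold, 1 of the 8 genes above the floor, CDKN1A, was higher in CD133+ cells (background 2.74% of genes) and 0 were lower (background 1.89%). In the ALDH sort 1 of 8, again CDKN1A, was lower in ALDH+ cells (background 6.6%) and 0 were higher (background 4.15%). The median over the 9 measured genes was 0.03 in the CD133 sort, beside -0.01 over all genes. In the ALDH sort it was -0.41, beside 0.03 over all genes. By sign alone, 5 of the 8 genes above the floor were lower in ALDH+ cells, where 51.5% of all genes above the floor were lower, and 3 of 8 were lower in CD133+ cells, where 57.1% were.

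**Figure D1:**
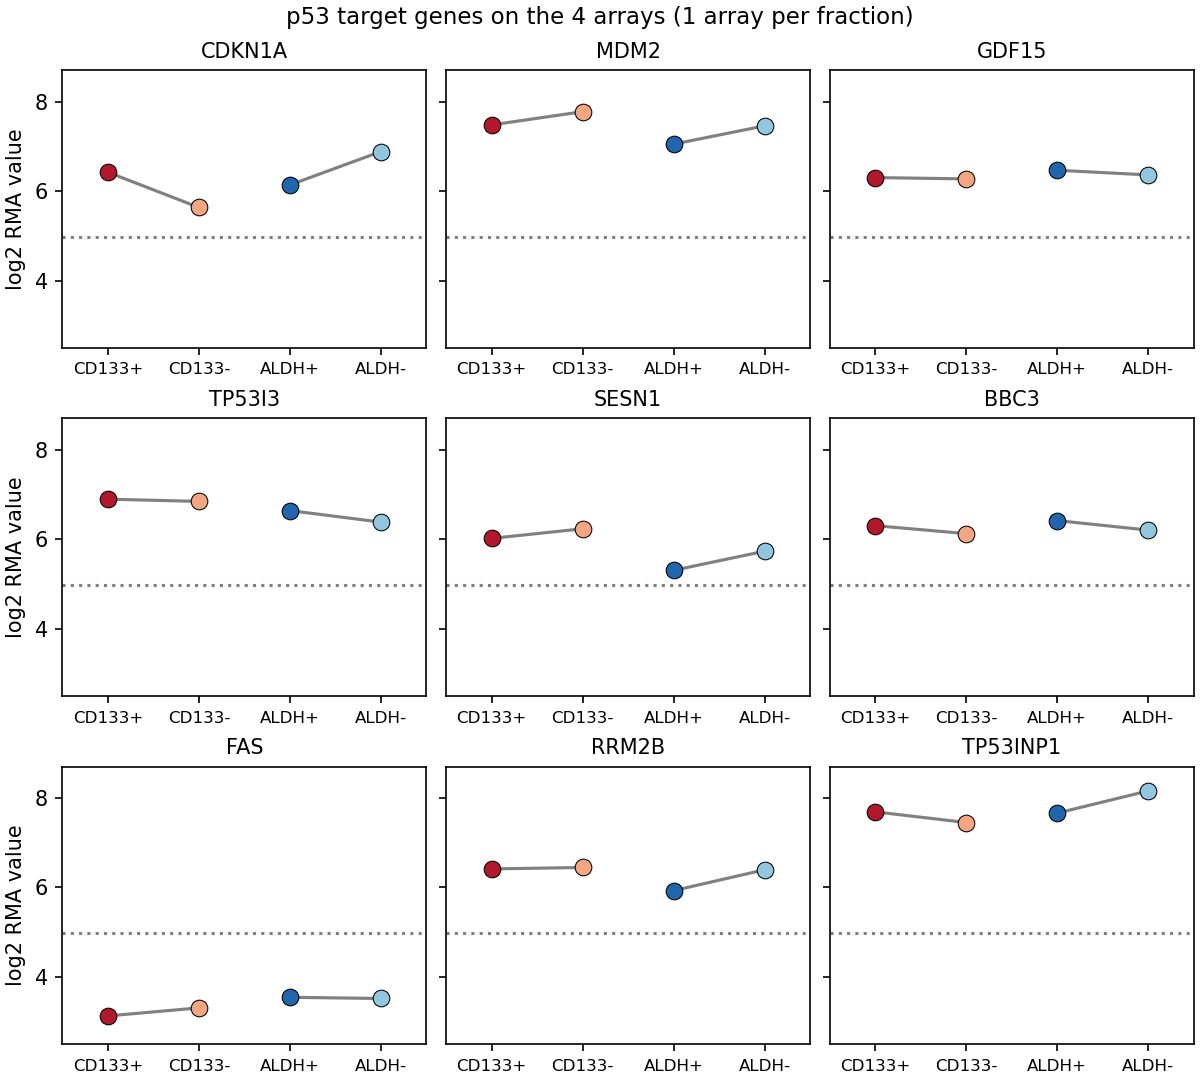
Log2 RMA values (y axis) of the 9 measured p53 target genes on the CD133+, CD133-, ALDH+ and ALDH- arrays (x axis), 1 array per point. Grey lines join the fractions of a sort and the dotted line is the floor at 4.98; CDKN1A slopes in opposite directions in the sorts, and FAS lies below the floor on all 4 arrays.

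The cell cycle arrest gene CDKN1A stood at 6.42 in CD133+ cells and 5.64 in CD133- cells, and at 6.14 in ALDH+ cells and 6.88 in ALDH- cells. The positive fraction was the higher one in the CD133 sort and the lower one in the ALDH sort, by 0.79 and -0.74. Only 150 of the 11591 genes above the floor had a larger difference than CDKN1A in the CD133 sort, and 425 of 11879 had a lower one in the ALDH sort. CDKN1A was the single p53 target to pass 1.5-fold both upwards in the CD133 sort and downwards in the ALDH sort. This joint pattern held for 139 (1.23%) of the 11293 genes above the floor in both sorts. Only 318 genes passed 1.5-fold upwards in the CD133 sort, so a reversal was frequent among them and not particular to CDKN1A. CDKN1A was lowest in CD133- and highest in ALDH- cells, each the negative fraction of its own sort. These fractions were unlike in the CD133 transcript: PROM1 stood at 5.32 in CD133- and 8.39 in ALDH- cells. For CDKN1A, ALDH- cells were 2.37-fold above CD133- cells, a wider gap than either sort gave. Such a 2-fold excess of ALDH- over CD133- cells was seen for 1.86% of the genes that reached the floor on either array. The sort and any array or processing batch cannot be told apart here, since each sort has its own pair of arrays.

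**Figure D2:**
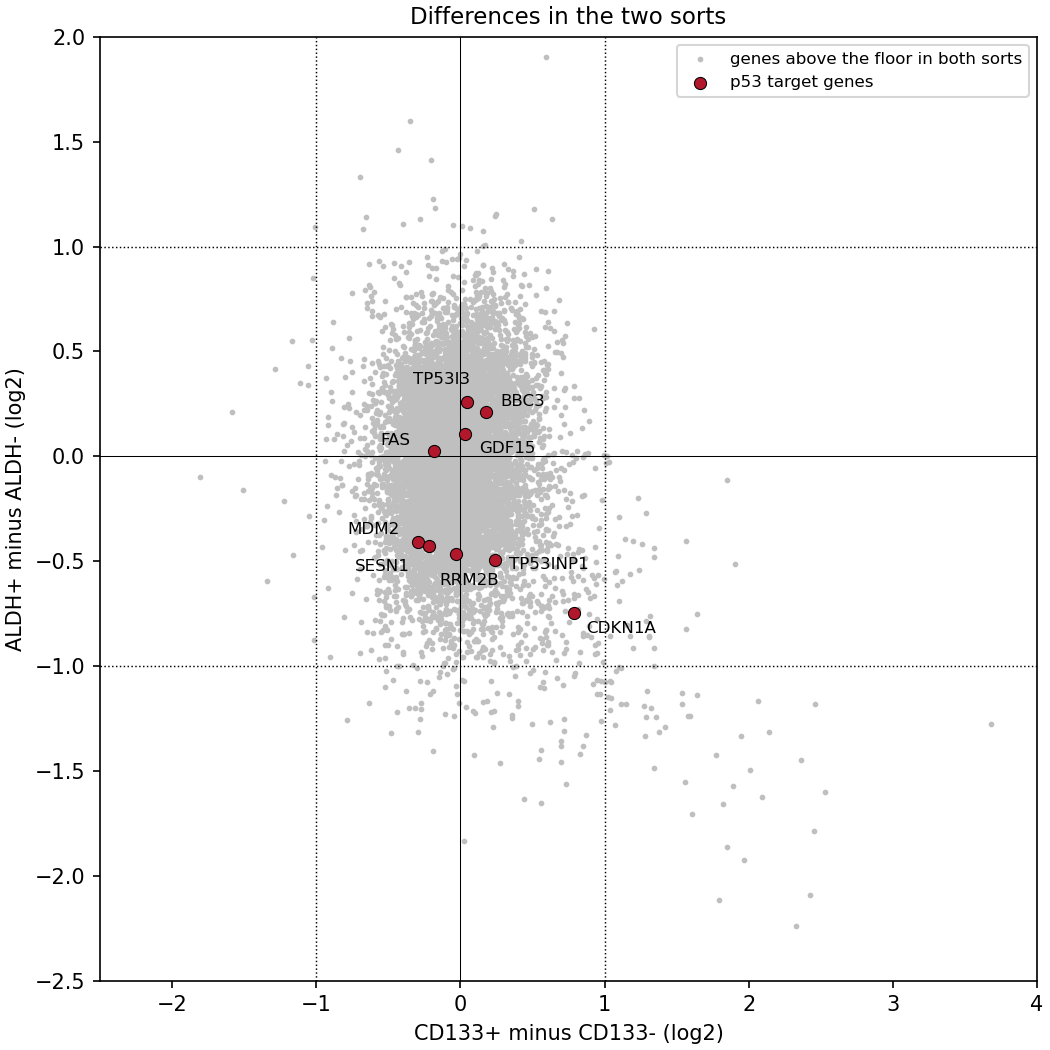
Difference in the ALDH sort (y axis, log2, ALDH+ minus ALDH-) against the difference in the CD133 sort (x axis, log2, CD133+ minus CD133-), with 11293 genes above the floor in both sorts in grey and the 9 measured p53 target genes in red. Dotted lines mark 2-fold; CDKN1A lies at 0.79 and -0.74, and the other 8 genes lie within 0.50 of 0 on both axes.

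The genes nearest to CDKN1A in pattern, by the Euclidean distance of their 4 values after each gene was centred on its mean, were STX3, ITPR3 and LYPD6. STX3, a syntaxin of membrane fusion, differed by 0.82 and -0.73 in the CD133 and ALDH sorts at a distance of 0.04. ITPR3, an inositol trisphosphate receptor of calcium release, differed by 0.89 and -0.75 at a distance of 0.08, and LYPD6 by 0.71 and -0.64 at 0.10. Likeness over 4 arrays rests on few points. The same measure for SESN1, the gene with the next widest range, gave IPP (0.03), PFDN4 (0.03) and HNRNPA1 (0.04). HNRNPA1 has near-identical pseudogenes that can share its probe's signal.

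Among the relatives of p21, the kinase inhibitor CDKN1B differed by 0.13 (CD133) and 0.08 (ALDH), and CDKN1C by 0.03 and -0.10. Neither shared the size of the CDKN1A differences. CDKN2A, a locus whose products inhibit cyclin-dependent kinases and MDM2, went the same way as CDKN1A in both sorts at a smaller size, 0.42 and -0.41.

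MDM2, the ubiquitin ligase that degrades p53, stood at 7.48 in CD133+ cells and 7.77 in CD133- cells, and at 7.05 in ALDH+ cells and 7.46 in ALDH- cells. It was lower in the positive fraction of both sorts, by 0.29 and 0.41, unlike CDKN1A. MDM4, its partner and a p53 inhibitor, was also lower in both, with differences of -0.22 and -0.54. Of 16 measured p53 regulators, 11 were lower in CD133+ cells (background 57.1% of genes above the floor). In ALDH+ cells 10 were lower (background 51.5%), among them ATR, which was below the floor in that sort. The medians were -0.12 and -0.08. ATM, the kinase that signals DNA breaks to p53, had the largest difference of this list, at 5.31 in ALDH+ cells and 6.09 in ALDH- cells (-0.78). It was the only regulator past 1.5-fold in either sort, 1 of 15 above the floor in the ALDH sort (background 6.6% lower in ALDH+ cells). Its CD133 difference was -0.26.

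SESN1 and RRM2B, which act in growth control and DNA repair, were also lower in ALDH+ than in ALDH- cells. SESN1, a sestrin that restrains the growth kinase complex mTORC1, stood at 6.02 in CD133+ cells and 6.24 in CD133- cells, and at 5.31 in ALDH+ cells and 5.73 in ALDH- cells. It was lower in the positive fraction of both sorts (-0.21 and -0.43). Both ALDH-sort arrays lay below both CD133-sort arrays. The same order held for 31.1% of the 11293 genes above the floor in both sorts and for 4 of the 9 measured members, SESN1 included. The gaps of SESN1 between the sorts, -0.71 for ALDH+ minus CD133+ cells and -0.50 for ALDH- minus CD133- cells, were wider than those within them. SESN3 differed more than SESN1 in the ALDH sort, at 6.82 in ALDH+ cells and 7.71 in ALDH- cells (-0.90), and had the opposite sign in the CD133 sort (0.60). SESN2 had the same signs as SESN3 at a smaller size, 0.32 and -0.31.

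RRM2B, the p53-inducible small subunit of ribonucleotide reductase, which supplies deoxynucleotides for repair, stood at 6.41 in CD133+ cells and 6.45 in CD133- cells, and at 5.93 in ALDH+ cells and 6.40 in ALDH- cells. The ALDH+ array alone was low and the other 3 lay between 6.40 and 6.45. RRM2, the small subunit used in S phase, went the other way in the ALDH sort, at 6.80 in ALDH+ cells and 5.57 in ALDH- cells (1.23, or 2.34-fold), with the ALDH- array as the low one. The large subunit RRM1, which pairs with either, differed by 0.29 there. PCNA, the replication clamp, differed by 0.84.

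TP53INP1, a p53-induced nuclear protein linked to autophagy and apoptosis, stood at 7.69 in CD133+ cells and 7.45 in CD133- cells, and at 7.66 in ALDH+ cells and 8.16 in ALDH- cells. The ALDH- array was the high one, and the signs in the sorts, 0.24 and -0.50, were those of CDKN1A at a smaller size. Its relative TP53INP2 differed by 0.13 and 0.00.

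**Figure D3:**
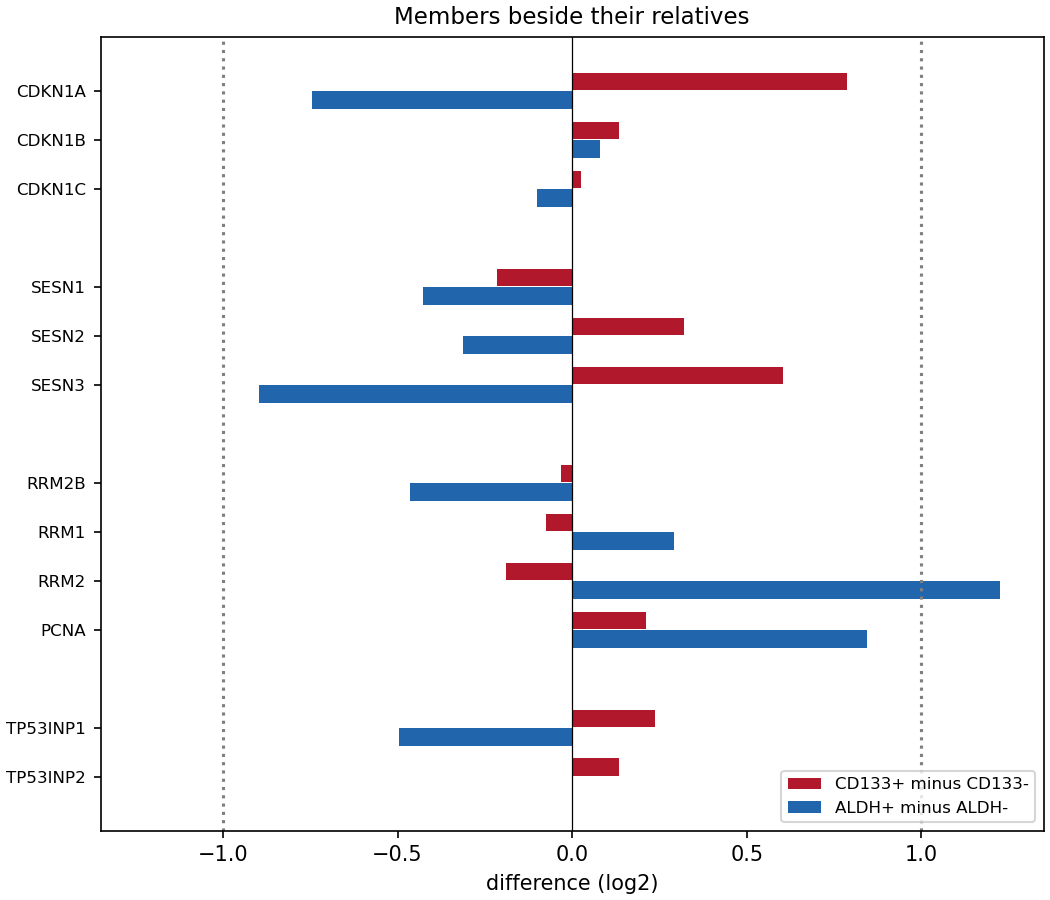
Differences (x axis, log2, positive minus negative fraction) of CDKN1A, SESN1, RRM2B and TP53INP1 beside their relatives and the replication clamp PCNA (y axis), in the CD133 sort (red) and the ALDH sort (blue), 1 pair of arrays per bar. Dotted lines mark 2-fold; in the ALDH sort RRM2B lies at -0.47 and RRM2 at 1.23.

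BBC3, TP53I3 and GDF15 were higher in the positive fraction of both sorts, by small amounts. BBC3, which encodes the BH3-only protein PUMA, stood at 6.30 in CD133+ cells and 6.13 in CD133- cells, and at 6.42 in ALDH+ cells and 6.21 in ALDH- cells. It was higher in both positive fractions, by 0.18 and 0.21, and all 4 arrays lay within 0.29. TP53I3, an oxidoreductase tied to reactive oxygen in p53-driven apoptosis, stood at 6.90 in CD133+ cells and 6.85 in CD133- cells, and at 6.64 in ALDH+ cells and 6.38 in ALDH- cells. It differed by 0.05 and 0.26, with both CD133-sort arrays above both ALDH-sort arrays, as for 31.1% of genes above the floor in both sorts. GDF15, a secreted cytokine of the TGF-beta superfamily, stood at 6.30 in CD133+ cells and 6.27 in CD133- cells, and at 6.47 in ALDH+ cells and 6.36 in ALDH- cells. It had the narrowest range of the 9, 0.19 over the 4 arrays, and differed by 0.03 and 0.10. FAS, the death receptor for Fas ligand, lay below the floor throughout, at 3.13 in CD133+ cells and 3.31 in CD133- cells, and at 3.55 in ALDH+ cells and 3.52 in ALDH- cells, so its differences are uncertain.

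Other p53 target genes, a list of 41 with 37 measured, showed no shared direction. In CD133+ cells 17 were higher and 20 lower (median -0.04), and in ALDH+ cells 20 were higher and 17 lower (median 0.02). Among all genes above the floor 57.1% were lower in CD133+ and 51.5% in ALDH+ cells. The medians over all genes were -0.01 and 0.03. The sign counts of the list take in genes below the floor. At 1.5-fold the CD133 sort gave 0 of the 30 above the floor (background 2.74% higher and 1.89% lower). The ALDH sort gave 1 of the 29, higher in ALDH+ cells (background 4.15% higher and 6.6% lower). That gene was AEN, an apoptosis-linked nuclease, at 6.26 in ALDH+ cells and 5.59 in ALDH- cells (0.67). SCO2, an assembly factor of cytochrome oxidase, came next, at 6.60 in CD133+ cells and 6.02 in CD133- cells (0.58). Among relatives of the 10 genes, BMF, a BH3-only gene, differed by -0.62 in the CD133 sort, with its CD133+ array just under the floor. BTG1, of the same family as BTG2, stood at 9.84 in ALDH+ cells and 9.24 in ALDH- cells (0.61).

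The cell cycle genes that p21 and DREAM repress were higher in ALDH+ than in ALDH- cells, in the sort where CDKN1A was lower. Of 20 measured, 19 were higher there, with a median of 0.45, and only 1, CCNB1 (-0.01), was lower. Over all genes above the floor 51.5% were lower in ALDH+ cells. At 1.5-fold 6 of 20 were higher in ALDH+ cells (background 4.15%) and 0 were lower (background 6.6%). They were the mitotic cyclin CCNB2 (0.85), the topoisomerase TOP2A (0.69), the kinase CDK1 (0.67), the spindle midzone protein PRC1 (0.62), the cyclin CCNA2 (0.59) and the mitotic kinase AURKB (0.59). CCNB2 stood at 7.25 in CD133+ cells and 7.42 in CD133- cells, and at 7.25 in ALDH+ cells and 6.40 in ALDH- cells, so the ALDH- array alone was low.

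In the CD133 sort, where CDKN1A was higher in CD133+ cells, the same list was split, with 10 genes higher, 10 lower and a median of 0.01. Over all genes above the floor 57.1% were lower in CD133+ cells. None of the 20 passed 1.5-fold in that sort (background 2.74% higher and 1.89% lower). Whether the CDKN1A level had a part in the cell cycle levels was not tested. The CHR element on either strand (TTTGAA or TTCAAA) was in 14 of 24 windows of this list (58.3%), belonging to 11 of 18 genes, and in 15.2% of all windows. These genes were listed for repression by DREAM, a complex known to bind that element. Among the genes past 1.5-fold in the ALDH sort, CCNB2, TOP2A, CDK1 and PRC1 had a window with the element, and CCNA2 and AURKB had none. Of the 15 p53 target windows, 2 held it.

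**Figure D4:**
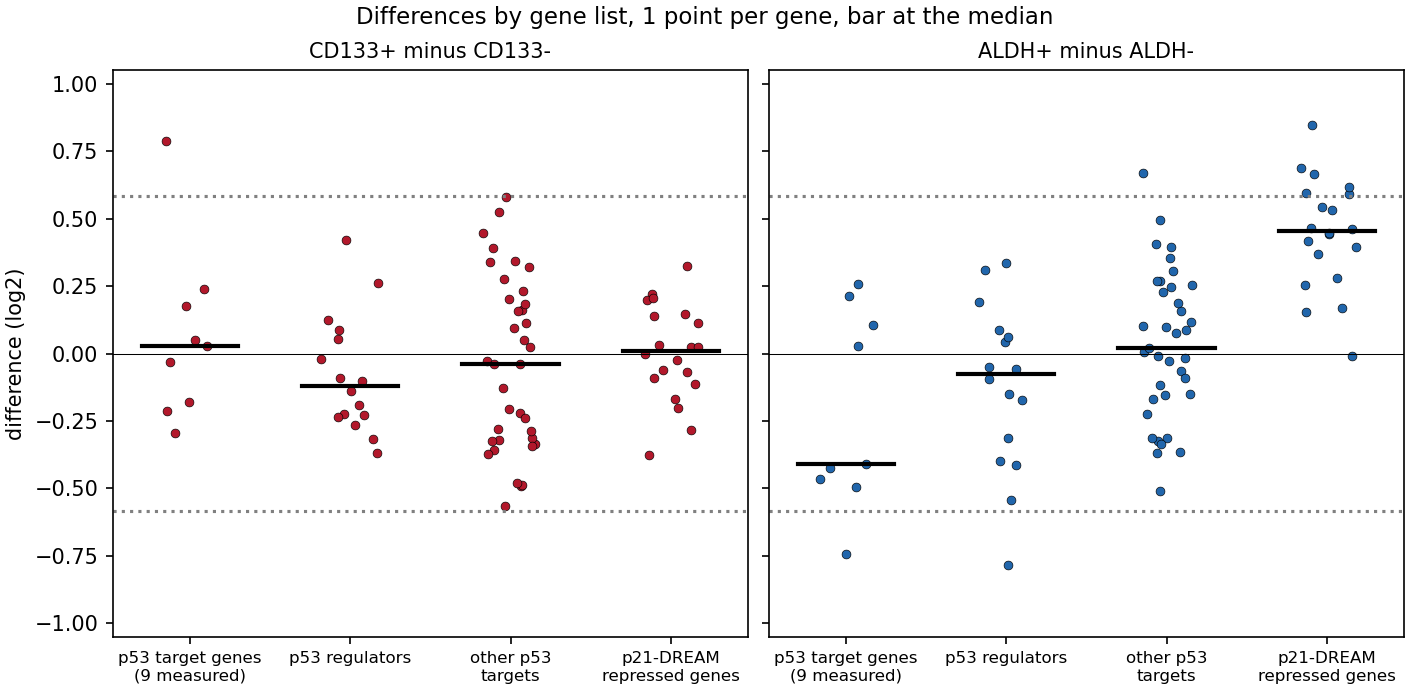
Differences (y axis, log2) in the CD133 sort (left, CD133+ minus CD133-) and the ALDH sort (right, ALDH+ minus ALDH-) of the p53 target genes, p53 regulators, other p53 targets and genes repressed through p21 and DREAM (x axis), with 1 point per gene and a bar at each median. Dotted lines mark 1.5-fold; in the ALDH sort the p53 target genes have a median of -0.41 and the DREAM list one of 0.45.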

How the data were processed

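The authors deposited RMA output, per the submitters' processing notes. Its range, 0.556 to 13.5, is that of log2 values, although the deposited table does not name the log2 scale. Software versions and the genome build behind the probes are not given in the sources used here. RMA equalises the arrays' distributions, which hides any change common to most genes. Of 28869 probes, 19310 had exactly 1 symbol in the platform annotation, 1752 had several and 7807 were not listed; 19279 matched a RefSeq gene. Where a gene had several probes (685 genes), the one brightest on average was used. Differences were counted at 2-fold and 1.5-fold with no test, since each group has 1 array. The number of arrays limits the precision, and whether fractions came from separate cultures is not stated. The members and lists were chosen with earlier results of these data known. Named were the 10 members, up to 6 genes per other list (those at 1.5-fold in either sort, or at least the 2 largest) and, for the 2 members of widest range, the 3 nearest genes; CDKN2A, CCNB1, other relatives and cell type markers were named after their values were seen. Of the fixed lists, 2 regulators, 4 other targets and 2 DREAM genes were not analysed here. The computation was checked on simulated data. Python 3.11.15, pandas 2.3.3, statsmodels 0.14.6 and matplotlib 3.10.9 were used.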

Additional observations from a re-analysis of the deposited data

Results flagged for a closer look

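CDKN1A differed in opposite directions in the sorts, and its ALDH difference minus its CD133 difference was -1.53 on the log2 scale. It was higher in CD133+ than in CD133- cells and lower in ALDH+ than in ALDH- cells, at 1.5-fold or more each time. Such a reversal was not particular to CDKN1A: of the 318 genes that passed 1.5-fold upwards in the CD133 sort, 139 showed it. With 1 array per fraction the difference between the sorts was not tested. The PROM1 transcript followed the CD133 labels. Among aldehyde dehydrogenase transcripts, ALDH1A1 differed by 0.04 in the ALDH sort, ALDH2 by 0.10, ALDH1A3 by 0.45 and ALDH1B1 by -0.14. The ALDH label names no single gene, and whether these transcripts follow it was not tested.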

How the results depend on the processing

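The count of p53 target genes past 2-fold was 0 in each sort, and at a 1.5-fold threshold it was 1 for CD133 and 1 for ALDH, CDKN1A in both. It stayed at 0 with no floor, with the floor moved to the 75th percentile, with the mean or each of a gene's probes, after centring of each pair, after a second quantile normalization, after loess with a span of 0.4 and with dimmer values set to the floor. The higher floor, the values set to the floor and the probe alternatives could not have raised this count. Over the alternatives run on single genes, CDKN1A lay between 0.77 and 0.83 in the CD133 sort and between -0.77 and -0.70 in the ALDH sort. The median of the members ran from 0.03 to 0.09 in the CD133 sort and from -0.44 to -0.34 in the ALDH sort, and that of the DREAM list in the ALDH sort from 0.42 to 0.50. Of 126 recomputed member differences, 119 kept their sign; the exceptions were FAS in both sorts and RRM2B in the CD133 sort, with values between -0.10 and 0.03 under those alternatives. Each measured member had 1 probe, so the alternatives on the choice of probe could change none of them. Those alternatives are part of the 126, and their signs were kept by construction. No paired analysis was possible because each group has 1 array.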
